A study of Homo sapiens with 24 samples.

Results

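N1-methyladenosine (m1A) calls were examined on the transcripts of 9 genes for stress granule proteins, G3BP1, G3BP2, CAPRIN1, TIA1, TIAL1, ATXN2, TARDBP, STAU1 and FMR1, among the 9319 genes with an m1A peak in the series. Members were chosen by RefSeq symbol, with the knowledge that G3BP2 had a region in both knockout lists and no wild-type peak, so the contrast of knockout and wild type is given as a description. The study used HEK293T, a human embryonic kidney cell line, in 5 conditions of 2 replicates each. KO cells lacked ALKBH3, a demethylase of alkylated nucleic acids, and were untreated. H2O2 cells were wild type and received 50 µM hydrogen peroxide for 30 min. Starve cells were wild type and were kept without serum for 16 h. UT cells were the untreated wild-type cells of the stress experiment, and WT cells were the untreated wild-type cells set against KO. In all conditions polyadenylated RNA was pulled down with an anti-m1A antibody (IP). For KO and WT a further IP sample was treated with a demethylase. The labels do not say whether the KO line was 1 clone, or whether replicates came from separate cultures.

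In m1A a methyl group sits on the base-pairing edge of adenosine, where it blocks Watson-Crick pairing and hampers reverse transcription. In messenger RNA the mark has been mapped mostly to the 5′ part of transcripts. Stress granules are cytoplasmic assemblies of untranslated messenger RNA and RNA-binding proteins that form when translation initiation is blocked, for example by oxidative stress. G3BP1 and G3BP2 drive their assembly, CAPRIN1 binds the G3BP proteins, and TIA1 and TIAL1 are RNA-binding proteins that help to form granules. ATXN2, TARDBP (TDP-43), STAU1 (a double-stranded RNA-binding protein) and FMR1 (the fragile X protein) are RNA-binding proteins found in them.

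The peaks are placed on RefSeq transcripts, counted from the first base, and transcript sequences were not used here. The sequence around the start site is shown for CAPRIN1, TARDBP and G3BP1, whose 5′ regions carry most of their calls and for which RefSeq (GRCh38.p14) gave 1 start each. Each line runs from 50 bases before the start, in lower case, to the 10 transcribed bases from the start, in capitals. The windows are chr11:34051681-34051740 on the plus strand for CAPRIN1, chr1:11012604-11012663 on the plus strand for TARDBP and chr5:151771904-151771963 on the plus strand for G3BP1.
CAPRIN1: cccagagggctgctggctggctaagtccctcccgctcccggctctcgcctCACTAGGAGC
TARDBP: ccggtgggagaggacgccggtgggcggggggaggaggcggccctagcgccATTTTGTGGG
G3BP1: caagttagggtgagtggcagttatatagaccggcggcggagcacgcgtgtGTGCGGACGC
Whether the study's transcripts begin at these starts was not analysed here. Over the 300 bases around the start, GC content was 74.0% for CAPRIN1, 60.0% for TARDBP and 55.0% for G3BP1. The median was 66.7% over genes with a peak in any list and 58.3% over all genes with a promoter sequence, so CAPRIN1 lay above both and G3BP1 below both. The single start of TIAL1 had 58.0% and that of FMR1 71.0%. Where RefSeq gave several starts, GC content spanned 55.7% to 69.0% for G3BP2, 61.3% and 78.0% for STAU1, and 49.7% and 57.7% for TIA1.

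The 10 peak lists held 2175 to 11362 peaks each. Total read counts are unknown, so the pileup (read coverage at the summit, with no visible normalization) was not compared in size between lists. The fold is the deposited enrichment of a peak over local background, and it describes a peak within its list. Input samples exist for every condition, but whether they entered that background is not stated. ALKBH3 itself had 0 peaks in every list, which leaves the knockout unchecked here. The descriptions of the UT samples point to the Starve lists, while a separate pair of lists is named UT, and peak names inside that pair carry the letters WT. All lists were matched to samples by title and file name. Because of the mismatch, every UT and Starve value below rests on that choice. Of 12 markers of other cell types 1 had a peak, COL1A1 in both UT lists, and all 6 markers looked for in HEK293T had a peak in some list. A peak needs a transcript that is expressed as well as modified, and an uncalled region is not an unmodified one. In such bulk samples fewer cells with a transcript and less RNA per cell cannot be told apart.

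Of the 9 genes, 8 had a peak and FMR1 had 0 in all 10 lists. Of the 27305 genes with a promoter sequence, 7589 had a peak in any list. STAU1 was called in 9 lists, TARDBP in 8, G3BP1 and G3BP2 in 6 each, ATXN2 in 5, CAPRIN1 in 4, TIAL1 in 3 and TIA1 in 2. The median of the 8 was 5.50 lists, against 3 over all genes with a peak. Being in 9 or more lists, like STAU1, held for 2.71% of genes with a peak, and being in 8 or more, like TARDBP, for 5.48%. For G3BP1 and G3BP2 the share was 16.4%, for ATXN2 24.4% and for CAPRIN1 35.3%. TIAL1 was thus about as often called as a typical gene of the series, with 50.6% of genes in as many lists or more. TIA1 was called less often, with 71.3%.

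**Figure D1:**
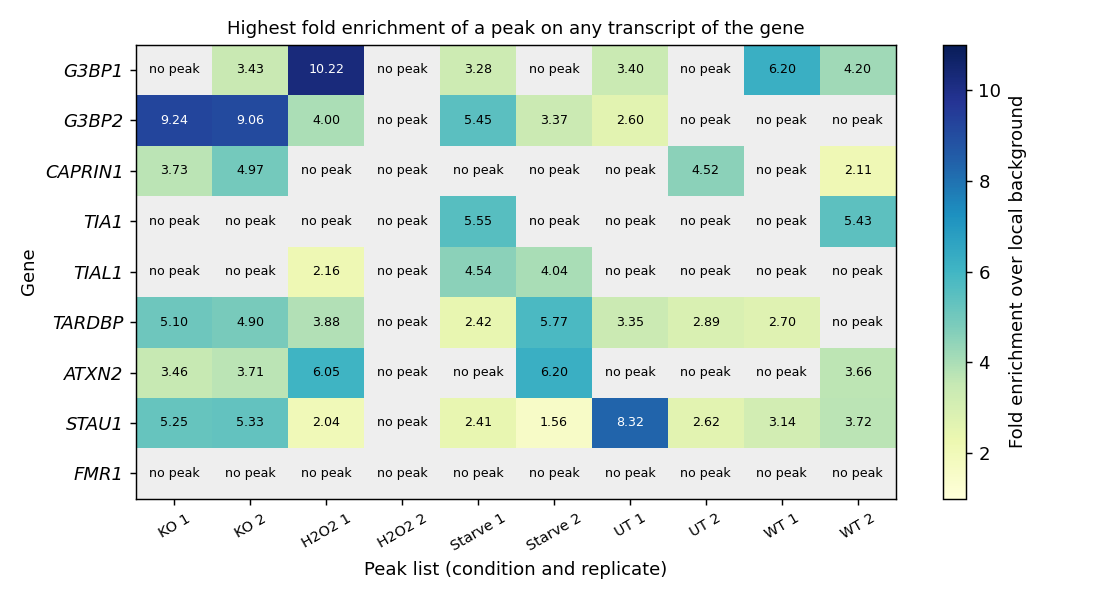
Highest fold enrichment over local background of any peak on any transcript of each gene (rows) in each of the 10 peak lists (columns, by condition and replicate). The second H2O2 list had no peak on any of the 9 genes, and G3BP2 had its highest values, 9.24 and 9.06, in the KO lists and no peak in WT.

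Members were called unevenly between lists. The KO lists held 5 and 6 of the 9 genes, where 22.1% and 22.4% of all genes with a peak were called. The H2O2 lists held 6 and 0 (37.5% and 21.6% of all genes), the Starve lists 6 and 5 (51.9% and 41.2%), the UT lists 4 and 3 (39.7% and 45.4%), and the WT lists 3 and 5 (13.5% and 21.9%). The second H2O2 list, with 0 members, was the shorter of its pair, with 3903 peaks against 7459, and had a median fold of 8.27 against 4.79. The part of these list properties in its lack of members was not tested. All member calls in H2O2 therefore rest on 1 library.

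G3BP2 carried a 5′ region at nt 121 to 283 of NM_203504 (G3BP2) that was called in 4 lists. In KO its pileup was 162 and 158, its fold 9.24 and 9.06, and its −log10 q-value 96.2 and 92.6. These folds exceeded those of 95.9% and 97.0% of the peaks in their lists. WT had no peak on any G3BP2 transcript. The region also lay in the second Starve list, with a pileup of 50 and a fold of 3.24, and in the first UT list, with a pileup of 50 and a fold of 2.60. There it ranked low, above 17.8% and 16.5% of the peaks of the list by fold. The absence of a G3BP2 call therefore held for both WT lists and not for all untreated wild-type lists. In the first Starve list the call was at nt 477 to 580 instead, with a fold of 4.52, and in the first H2O2 list it was deep in the transcript at nt 2356 to 2455, with a fold of 3.80.

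G3BP1 was called near its 5′ end in 6 lists. On NM_005754 (G3BP1) the second KO list had a pileup of 73 and a fold of 3.43, and the first KO list had no G3BP1 peak. Both WT lists held the region, with pileups of 90 and 113 and folds of 6.20 and 4.20, above those of 84.5% and 59.7% of the peaks in their lists. The first UT list had a pileup of 29 and a fold of 2.72, above that of 19.3% of its peaks. The first Starve list had a wider peak from nt 71 to 309, with a fold of 3.19 and a summit at nt 308. In the first H2O2 list the peak started further in, at nt 221 to 338, with a pileup of 110 and a fold of 8.72. It touched the 5′ region only through that wide Starve peak, and did not overlap the KO, UT or WT peaks. Single lists held further peaks within the transcript, at nt 660 to 789 in the first UT list and at nt 896 to 995 in the first H2O2 list.

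CAPRIN1 had a 5′ region in both KO lists, and the WT call depended on the transcript. On NM_203364 (CAPRIN1) the KO folds were 3.73 and 4.97, with pileups of 141 and 181, and the second WT list had a fold of 2.11 with a pileup of 242. On NM_005898 (CAPRIN1) the KO folds were 1.38 and 3.47, with pileups of 136 and 164, and no WT list held the region. The KO call on NM_005898 was weak in the first list, with a −log10 q-value of 1.85, against 37.8 in the second. Its summits there lay at nt 281 and 163, against nt 136 and 127 in KO on NM_203364. In the second UT list the single CAPRIN1 peak lay at nt 3049 to 3148 of NM_005898, with a fold of 4.52. No list of H2O2 or Starve held CAPRIN1.

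The TIA proteins were called in few lists. TIA1 had a peak at nt 24 to 132 of NM_022037 (TIA1) in the first Starve list, with a fold of 5.55, and at nt 101 to 224 in the second WT list, with a fold of 5.36. These peaks overlap, although their summits lie at nt 108 and 188. TIAL1 had peaks in the first H2O2 list and both Starve lists, and no peak in the KO, UT and WT lists. The first Starve list held 3 peaks on NM_001033925 (TIAL1), with folds of 3.13, 4.54 and 3.13 at nt 142 to 241, 1747 to 1846 and 2262 to 2361. The second Starve list held another, at nt 440 to 599 with a fold of 4.04, which overlapped the H2O2 peak at nt 453 to 552, with a fold of 2.16. The Starve replicates thus shared the gene and no position on it.

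TARDBP showed a 5′ region in 6 of its 8 lists and an internal region in the rest. In KO the 5′ peak of NM_007375 (TARDBP) had pileups of 89 and 85 and folds of 5.10 and 4.90. The other lists with a 5′ call had lower ranks within their lists. The first Starve list had a fold of 2.42 and a pileup of 23, the UT lists folds of 3.35 and 2.89 with pileups of 36 and 28, and the first WT list a fold of 2.70 with a pileup of 46. By fold the KO peaks exceeded 75.6% and 75.7% of the peaks in their lists, the Starve peak 12.4%, the UT peaks 38.6% and 20.6%, and the WT peak 19.0%. The internal region, at nt 1019 to 1137, was called in the first H2O2 list with a fold of 3.88 and in the second Starve list with a fold of 5.77. Neither of these lists held the 5′ region, and no list held both.

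ATXN2 had its common region further from the start, at nt 366 to 629 of NM_002973 (ATXN2). Both KO lists held it, with pileups of 152 and 171 and folds of 3.46 and 3.71, as did the first H2O2 list, with 196 and 6.05, and the second WT list, with 222 and 3.66. The summits lay at nt 458 and 463 in KO, 454 in H2O2 and 509 in WT. The second Starve list held a separate peak at nt 769 to 915, with a fold of 6.20. No UT list held ATXN2.

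STAU1 had the only member region in all 4 lists of KO and WT. On NM_004602 (STAU1) the peak started at nt 49 and 30 in KO and at nt 20 and 23 in WT, with summits between nt 109 and 113. KO had pileups of 638 and 650, and WT had 260 and 525. KO had folds of 5.06 and 5.19, and WT had 3.14 and 3.70. The 5′ region was also called in the first H2O2 list, with a pileup of 237 and a fold of 1.99, and in the second Starve list, with 187 and 1.56. In these lists the pileup exceeded that of 95.2% and 87.0% of peaks and the fold that of 3.61% and 0.592%, so the coverage ranked high and the fold low. Neither UT list held the 5′ region. The first UT list had an internal peak at nt 2027 to 2135, with a pileup of 105 and a fold of 8.32, and the second UT list one at nt 3297 to 3396, with a pileup of 21 and a fold of 2.62. The first Starve list had one at nt 1422 to 1521, with a pileup of 26.

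Isoforms of a gene repeated the same signal, so peaks on several transcripts are not separate observations. The 99 member peaks lay on 18 transcripts, 42 of them on 5 transcripts of STAU1. All 5 STAU1 transcripts held the 5′ region in KO and WT, while NM_017452 and NM_017453 (STAU1) lacked the calls in H2O2 and Starve that the other transcripts had. Internal STAU1 peaks were shifted between isoforms by 18 to 364 nt. In the first UT list the peak of NM_004602 at nt 2027 to 2135 had a counterpart on every transcript, with folds of 7.86 to 8.32. NM_001037328 (STAU1) held a further peak in that list, at nt 952 to 1051 with a fold of 2.80. On G3BP2 the 5′ region was present on NM_203504 and NM_203505 and in no list on NM_012297. On NM_012297 the Starve peak lay 135 nt and the H2O2 peak 36 nt nearer the start than on NM_203504. For G3BP1 the 5′ calls of KO, UT and WT appeared on NM_005754 and not on NM_198395, where H2O2 and Starve peaks lay at nt 190 to 307 and 179 to 278.

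Counting 1 transcript per gene, 15 of 18 member peaks in the KO and WT lists had their summit within 300 nt of the transcript start, where 70.2% of all peaks of these lists did. In the H2O2, Starve and UT lists 11 of 29 member peaks did, where 35.6% of all peaks did. All peaks differed between the sets of lists in the same direction as those of the members. Among the members the 3 exceptions in KO and WT were the ATXN2 peaks.

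**Figure D2:**
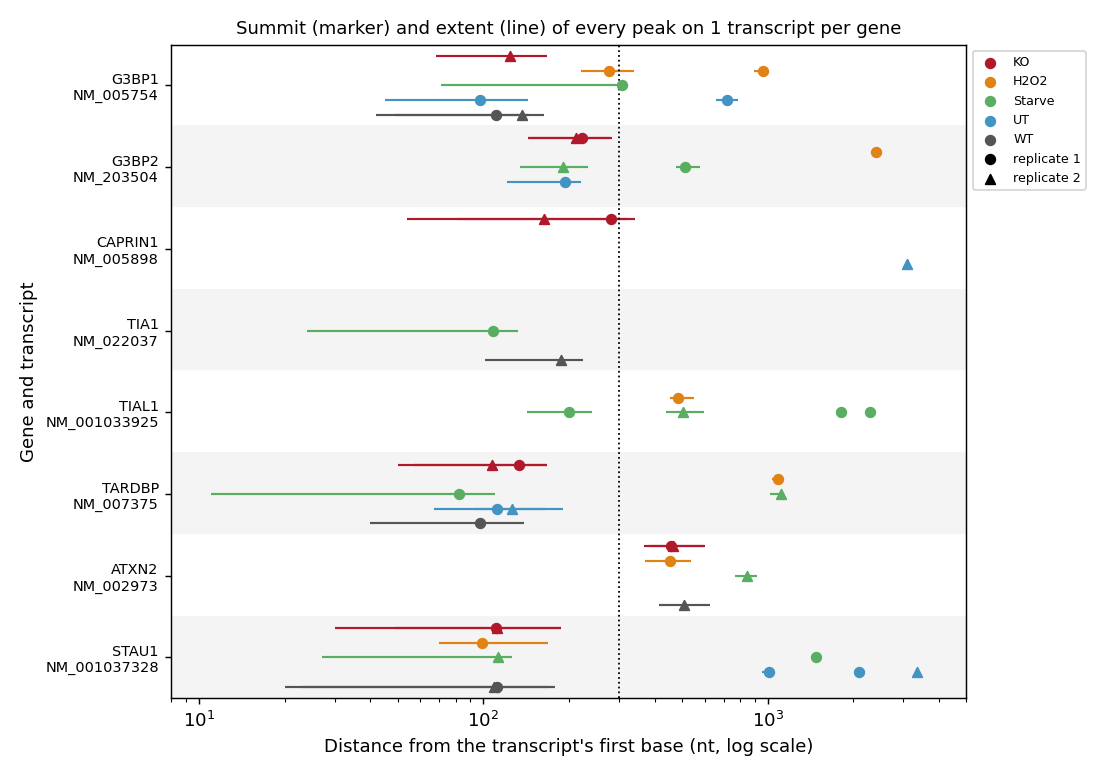
Summit (circle for replicate 1, triangle for replicate 2) and extent (line) of every peak on 1 transcript per gene, by distance from the transcript's first base on a log scale, coloured by condition. The dotted line marks 300 nt. KO and WT peaks cluster left of it except for ATXN2, while H2O2, Starve and UT peaks also lie within the transcripts. CAPRIN1 is shown on NM_005898, so its WT peak on NM_203364 does not appear.

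The comparison of KO with WT sets the calls of cells without ALKBH3 beside those of wild-type cells. Whether a site depends on ALKBH3 was not tested. A region was called KO-only when both KO lists held it and neither WT list did, after peaks overlapping by 1 nt were joined. G3BP2 and CAPRIN1 had such a region, 2 of the 7 members with a peak in these lists, and the background was 18.9% of 3903 genes. For G3BP2 no WT peak existed at any position, and for CAPRIN1 the second WT list held the region on the other transcript. No member had a WT-only region, where the background was 5.20%. By gene, regardless of position, G3BP2 was called in both KO lists and absent from WT (background 16.3%), and no member was the other way round (background 4.97%). Since the members were proposed with this contrast known, nothing is read from these shares. Of the 6 members with a KO peak, 5 had a region in both KO lists (background 53.4%). Of these, STAU1 was also in both WT lists, TARDBP was in the first and ATXN2 in the second. Without the first WT list TARDBP would count as KO-only and TIA1 as WT-only, and without the second ATXN2 would. G3BP1, in both WT lists and the second KO list, would count as WT-only without that KO list.

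Hydrogen peroxide gave no member a region in both H2O2 lists, against a background of 11.4% of genes with an H2O2 peak. No member was H2O2-only against UT (background 2.33% of 7517 genes), since the second H2O2 list held none of them. TARDBP had a UT-only region, its 5′ peak (background 5.49%), with the first H2O2 list holding the internal peak instead. The values of TARDBP were thus a fold of 3.88 at nt 1088 in that H2O2 list, and folds of 3.35 and 2.89 at nt 112 and 126 in UT. Judged on the first H2O2 list alone, 6 of 7 members had an H2O2 region that neither UT list held (background 37.4% of 7108 genes). They were G3BP1, G3BP2, TIAL1, ATXN2, TARDBP and STAU1, which are all the members in that list. The background also counts genes with a peak in UT alone. Of the 3494 genes in the first H2O2 list, 2658 had such a region. By gene, none was in both H2O2 lists and neither UT list (background 2.49%), nor the other way round (background 8.23%). The exact two-sided p of 2 lists against 2 cannot go below 0.333 for a single region, so no test was made.

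Serum starvation likewise gave no member a region in both Starve lists (background 15.1%), although 4 members, G3BP2, TIAL1, TARDBP and STAU1, had a peak in each of them at some position (background 34.8%). Their peaks lay at different positions in the 2 replicates, such as nt 477 to 580 and nt 135 to 234 on NM_203504 (G3BP2). No member was Starve-only against UT by region (background 5.34% of 8465 genes), and none was UT-only (background 4.06%). By gene, regardless of position, TIAL1 was called in both Starve lists and neither UT list (background 6.07%), and no member was the other way round (background 4.08%). These comparisons share the UT lists with those for H2O2.

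UT and WT are both untreated wild-type cells by their labels. No member had a UT-only region against WT (background 6.58% of 6670 genes). STAU1 had a WT-only region, its 5′ peak, on all 5 transcripts (background 2.98%). By gene, none was called in both UT lists and absent from WT (background 14.2%), nor the other way round (background 1.57%). On NM_004602 (STAU1) the UT lists held the internal peaks with pileups of 105 and 21, and the WT lists the 5′ peak with 260 and 525. TARDBP was the only member with a region in both UT lists (background 14.5%), and G3BP1 and STAU1 had one in both WT lists (background 24.8%).

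The windowed files give coverage over called regions in 10-nt windows that advance by 5 nt, scaled by the authors to about 200 per region, so they show the shape of coverage and not its level. The KO files held G3BP2, CAPRIN1, ATXN2, TARDBP and STAU1, and the WT files G3BP1 and STAU1. The demethylase-treated column was the same profile in both files of a genotype up to a constant factor, on 99.6% of 775 transcripts in KO and 99.7% of 355 in WT (within a tolerance of 0.0001), whereas the IP columns never were. The treated samples are therefore given as 1 track per genotype, with no replicate error, and no test was made on them.

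STAU1 was the only member with shared windows in all 4 files. Over the 5′ windows its IP profile differed between genotypes by more than between replicates. On NM_004602 (STAU1), the 14 windows over nt 1 to 75 held 6.90% and 9.94% of IP coverage in KO, and 17.4% and 22.8% in WT. The 10 windows over nt 131 to 185 held 41.9% and 37.2% in KO, and 32.2% and 23.4% in WT. Coverage in WT thus formed a shoulder on the 5′ side that was lower in KO. Over nt 131 to 185 the WT replicates lay further apart than the nearest KO and WT values. The middle windows, nt 71 to 135, held a similar part throughout, 51.2% and 52.8% in KO and 50.4% and 53.8% in WT. After demethylase this transcript had 7.84% in KO and 6.63% in WT over the 5′ windows and 40.3% in KO and 40.9% in WT over the 3′ ones.

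The coverage-weighted centre of the STAU1 IP profile lay at nt 124 and 119.6 in KO and at nt 112 and 104 in WT, a difference of 13.6 nt. The replicates differed by 4.46 nt in KO and 7.84 nt in WT. On the other 4 STAU1 transcripts, which repeat these reads, the KO minus WT difference was 7.26 to 10.6 nt, and the KO and WT values did not overlap on any of the 5. Such a separation was common. Among 87 transcripts with 10 or more shared windows, 41.4% had both KO centres nearer the 3′ end than both WT centres and 18.4% had the reverse, and the median difference was 2.92 nt. NM_004602, with the largest difference of the 5, lay at percentile 92.0, and the other 4 lay at 75.9 to 85.1. The treated centre differed between KO and WT by -2.94 to 4.76 nt on 4 of the transcripts and by 11.7 nt on NM_017454 (STAU1), so the likeness of the treated tracks on NM_004602 did not hold for every isoform.

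**Figure D3:**
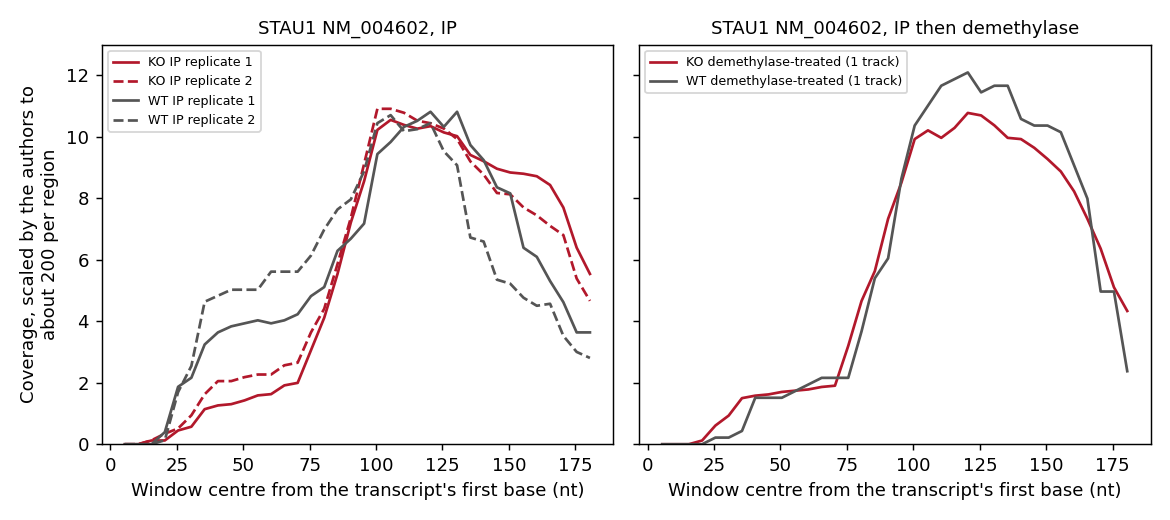
Coverage of STAU1 (NM_004602) in 10-nt windows by distance of the window centre from the transcript's first base, scaled by the authors to about 200 per region; left, the IP replicates of KO (red) and WT (grey); right, the demethylase-treated track of each genotype. Both WT IP lines run above the KO lines over nt 21 to 75 and below them over nt 151 to 185, while the treated tracks lie close together over nt 1 to 75.

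For the remaining members windows existed in 1 genotype. On NM_203504 (G3BP2) the IP centre in KO was nt 219 and 212, with the highest IP windows at nt 225 to 234 and 223 to 232. The treated centre was nt 215 in both files, so treated minus IP was -3.65 and 2.79 nt. Over the same region on NM_203505 (G3BP2) it was -7.47 and -3.02 nt, so the sign in the second file depended on the transcript. ATXN2 had -10.5 and -10.1 nt in the KO files, while CAPRIN1 (NM_203364) had 2.28 and 11.4 nt over regions of unequal length. TARDBP had -0.266 and 7.98 nt. In the files as a whole the treated centre lay nearer the 3′ end for 50.7% and 50.1% of transcripts in KO and for 48.9% and 39.8% in WT. The STAU1 transcripts had positive values in WT, from 3.96 to 19.2 nt, and from -1.86 to 13.1 nt in KO. In WT, G3BP1 (NM_005754) had 8.75 and -2.27 nt. Its treated track took only 2 distinct values above 0, so its shape was coarse.

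**Figure D4:**
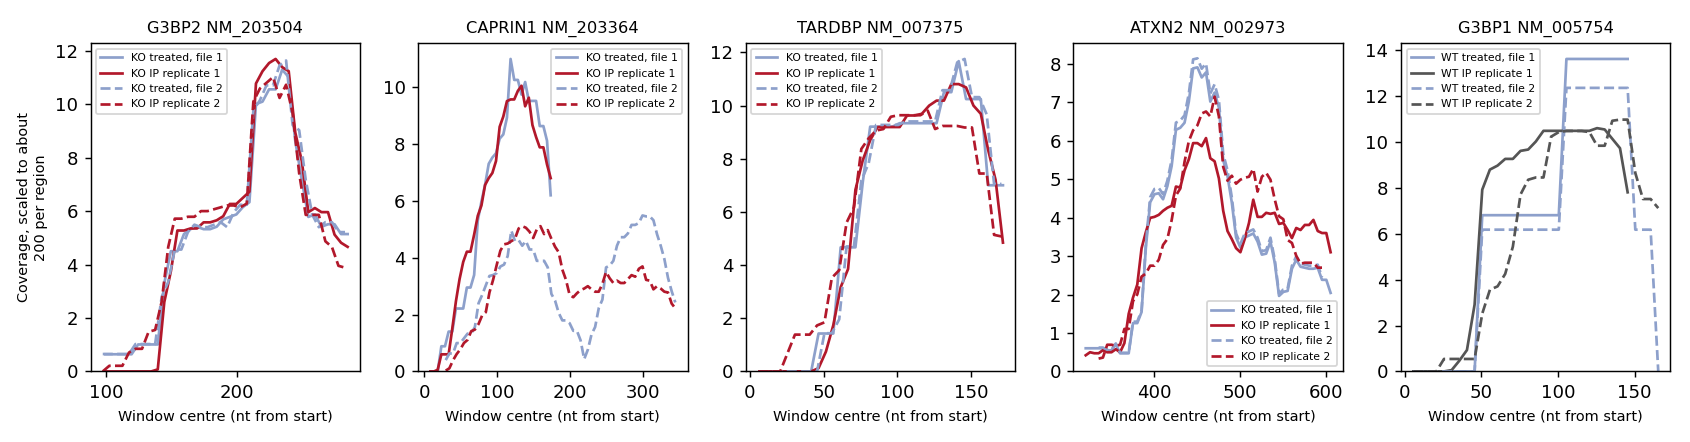
Demethylase-treated (blue) and IP (red for KO, grey for WT) coverage in 10-nt windows, scaled by the authors to about 200 per region, by distance of the window centre from the transcript's first base, for G3BP2, CAPRIN1, TARDBP and ATXN2 in KO and G3BP1 in WT; solid and dashed lines are files 1 and 2. Treated and IP lines of G3BP2 run close together, and the treated line of G3BP1 moves in steps.

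A list of 58 other stress granule genes gave the setting for these members. Of them 54 had a peak, where 7589 of the 27305 genes with a promoter sequence did. Their median was 5 lists, against 3 over all genes with a peak. Against WT, 5 of 37 with a peak had a KO-only region (background 18.9%). They were TAF15, an RNA-binding protein (folds 9.24 and 6.67), ATXN2L, the paralogue of ATXN2 (5.51 and 4.01), IGF2BP1 (3.95 and 3.32), the poly(A)-binding protein PABPC1 (2.82 and 2.42) and HNRNPK (2.45 and 2.17). The ATXN2L region, at nt 3445 to 3610 of NM_007245 (ATXN2L), overlapped a region at nt 3423 to 3594 in both UT lists. The second WT list also had a peak on ATXN2L. WT-only regions were on 3 of 37 (background 5.20%), UBAP2L, which promotes granule assembly, the translation factor EIF4G2 and the m6A reader YTHDF1, with lower folds of 3.02, 2.61 and 2.19.

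Under H2O2, 1 of 52 had an H2O2-only region, the Y-box protein YBX3 (2.41 and 2.64; background 2.33%), and 4 had a UT-only region (background 5.49%). These were LSM12, the scaffold factor EIF4G1, the helicase DHX36 and LSM14A, with lower folds of 4.16, 3.81, 2.99 and 2.15. In Starve 3 of 51 were Starve-only (background 5.34%), UBAP2L (3.63 and 11.8), EIF3B (3.44 and 3.21) and YBX3 (2.17 and 2.73). UT-only against Starve were 2, the helicases DDX1 (4.45 and 6.93) and UPF1 (3.29 and 3.29; background 4.06%). These calls are by region, and both Starve lists had other peaks on UPF1. Likewise the second UT list had other peaks on UBAP2L and EIF3B, and the first H2O2 list on LSM14A. Against WT, 5 of 47 were UT-only (background 6.58%), namely TAF15, EIF4G1, UPF1, DHX36 and ATXN2L, with lower folds of 5.62 to 2.73. WT-only against UT were 6 (background 2.98%), YBX3, EIF3B, NUFIP2, SND1, YTHDF1 and PABPC4, with lower folds of 4.63 to 1.62.

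Genes with the pattern most like that of a member were found by the distance over the 10 lists of log2(1 + highest fold), with 0 where a gene had no peak. For G3BP2 they were RPLP2 (distance 1.29), ZNF711 (1.76) and MCM4 (1.77), which like G3BP2 had peaks in both KO, both Starve, the first H2O2 and the first UT list and none in WT. For G3BP1 they were MRPL24 (2.07), ROCK1 (2.30) and CDKN2C (2.52). CAPRIN1 was closest to RAP1B (0.42) and MORC4 (0.92), and ATXN2 was close to MCM5 (0.65) and FADD (1.29). TIAL1, with 3 lists, was closest to SCO1 (0.39), NAMPT (0.41) and WBP2 (0.44). TARDBP was closest to ADIPOR1 (1.23), SF3A1 (1.55) and BLOC1S5-TXNDC5 (1.59), which shared all its 8 lists. STAU1 was closest to SCARB1 (1.55), RPS20 (1.73) and COX6A1 (1.88), which shared all its 9.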

How the data were processed

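Labels describe 24 samples in 12 groups of 2. Per the submitters' processing notes, Trim Galore, HISAT, MACS2 and build hg19 were used, without versions or order. There is 1 peak list for each replicate, and its columns are those of MACS2, per the file headers. The deposited pileup is a coverage signal, the deposited fold enrichment a ratio over local background, and −log10 p-values and −log10 q-values are as deposited. Windowed coverage signal was scaled by the authors per region. Which control library a list used is not stated.

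Symbols came from a RefSeq table of GRCh38.p14 (17019 of 17315 transcripts matched, 98.3%), used for names. Peaks were joined by 1 nt with Python 3.11.15 and pandas 2.3.3. The calling of regions was tested on simulated lists with a single region of widely overlapping peaks per transcript. Joins by few bases or through another peak were not tested. Background shares are percentages of genes with a region in the comparison. Members and gene lists were chosen with earlier results of these data known. The named genes were all 9 members, the other stress granule genes with a region in both lists of a group and neither of the other (up to 8 per direction by the lower fold), and the 3 closest genes of each member in 3 or more lists, some of which are not reported here. The limma fits planned on treated over IP coverage were not run, because each genotype had 1 treated track and the contrast had chosen the members. Alternatives were other overlaps, folds of 4, −log10 q-values of 5, equal list lengths, 1 transcript per gene, gene-level calls and leaving out each list. Read depth is unknown, so no intervals are given.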

Additional observations from a re-analysis of the deposited data

How the results depend on the processing

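All counts below are of member genes. Of the recomputed values 66 were within 1.5 times the value reported (or within the replicate spread) and 33 moved. In 4 of the 66 the genes differed. With folds of 4 or more the KO-only genes were 3 (G3BP2, TARDBP and STAU1, without CAPRIN1), and the WT-only gene against UT was G3BP1 in place of STAU1. Without the first WT list TARDBP joined the KO-only genes, and without the second ATXN2 did. The KO-only count of 2 became 1 (G3BP2) with −log10 q-values from 5 up, with equal list lengths, with 1 transcript per gene and with gene-level calls, and the WT-only count of 0 became 1 (G3BP1) with folds of 4 or more and with equal list lengths. Against H2O2 the UT-only count of 1 became 0 with folds of 4 or more, with equal list lengths and with gene-level calls. For Starve against UT, the UT-only count of 0 became 1 (TARDBP) with an overlap of 50% of the shorter peak, with −log10 q-values from 5 up and with equal list lengths, and the Starve-only count of 0 became 1 (TIAL1) with gene-level calls. The WT-only count against UT, 1, became 2 with equal list lengths and 0 with gene-level calls. With folds of 4 or more, members with a region in both lists were 3 in KO, 0 in UT and 1 in WT, against 5, 1 and 2. Leaving out each list gave ranges of 2 to 3 KO-only and 0 to 1 WT-only, 0 to 6 H2O2-only and 1 to 4 UT-only, 0 to 5 Starve-only and 0 to 2 UT-only, and 0 to 3 UT-only and 1 to 4 WT-only. Each range rests on single lists: without the second H2O2 list 6 members were H2O2-only, without either Starve list 4 and 5 were Starve-only, and without the first WT list 4 were WT-only against UT. The STAU1 centre difference, an alternative chosen after seeing the data, ranged from 9.69 to 17.5 nt. The cause of these moves was not tested, beyond a single list sufficing where its partner is left out. No paired analysis was possible because the results come from no test. The planned fits of treated over IP coverage and their pseudocount, filter and replicate alternatives were not run.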

Other observations

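Among the other stress granule genes, YBX3 and TAF15 were singled out after their values were seen. YBX3, a Y-box RNA-binding protein, had a 5′ peak in all 8 lists other than UT and no peak in UT. On NM_003651 (YBX3) the pileup was 3512 and 2914 in KO, 1149 and 1291 in H2O2, 968 and 1201 in Starve, and 1855 and 2723 in WT. The folds were 6.58 and 5.71 in KO, 2.41 and 2.64 in H2O2, 2.02 and 2.09 in Starve, and 5.10 and 4.44 in WT. TAF15, an RNA-binding protein, had peaks in 8 lists and none in WT. Its 5′ peak on NM_003487 (TAF15) was in both KO lists, with pileups of 362 and 300, and in the first UT list, with 89.

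EWSR1, YBX1, ELAVL1 and FAM120A were called in 9 lists each, as STAU1 was. The 4 genes of the list without any peak were STAU2, the paralogue of STAU1, MBNL1, ZC3HAV1 and YTHDF3.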
